A study of Homo sapiens with 6 samples.

Results

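The unfolded protein response and the heat shock response are the programs by which a cell raises its protein folding capacity under stress. A list of 35 genes of these programs was examined in HT-29 cells, a human colon adenocarcinoma line, after treatment with 5-aza-2′-deoxycytidine (5-Aza), a nucleoside that blocks DNA methyltransferases. The members were taken from the array table by their gene symbols, with 1 probe set for each gene (the highest mean signal over the 6 arrays, and one with the suffix _x_at, whose probes also match other transcripts, only where there was no other). By this rule 34 of the 35 members were measured, of 19775 genes in all. HSPA8, a constitutive heat shock protein of the cytosol, has 4 probe sets on the array, and the annotation assigns each of them to small nucleolar RNA genes as well, so no value is given for it. RNA of cells kept for 72 hours with 10 µM 5-Aza was hybridized to 3 HGU133 Plus2.0 arrays, and RNA from control cells given the solvent alone (water and acetate) to another 3. The medium of the treated cells held no serum during these 72 hours, and for the control cells the methods name only the added solvent. No source tells if the 3 arrays of 1 group stand for separate cultures. The p-values below therefore measure only the spread between these arrays, which may be technical.

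When unfolded proteins gather in the endoplasmic reticulum (ER), the membrane sensors IRE1 (ERN1), PERK (EIF2AK3) and ATF6 are activated. ATF6 and spliced XBP1 induce chaperones and degradation factors of the ER, and PERK slows protein synthesis while the mRNA of ATF4 is translated, which in turn induces DDIT3, TRIB3, CHAC1 and ASNS. The factor HSF1 induces chaperones and cochaperones of the cytosol such as HSPH1, DNAJB1 and BAG3. The arrays measure the amount of mRNA, and neither the splicing of XBP1 nor the translation of ATF4 and PPP1R15A is seen in them. The colon epithelium, with its secretory cells, relies on ER folding capacity.

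The control elements that define these branches can be read in the promoters of some of the members. The windows, from 250 bases before to 50 after a transcription start, were those of RefSeq for GRCh38.p14, and 34 of the 35 members had at least 1. HSPA5, which encodes the ER chaperone BiP, is shown over the whole window of 300 bases (chr9:125241294-125241593, minus strand), as the classical target of ATF6. Capitals mark the ER stress response element (ERSE). All sequences run 5′ to 3′ in the direction of transcription.

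HSPA5: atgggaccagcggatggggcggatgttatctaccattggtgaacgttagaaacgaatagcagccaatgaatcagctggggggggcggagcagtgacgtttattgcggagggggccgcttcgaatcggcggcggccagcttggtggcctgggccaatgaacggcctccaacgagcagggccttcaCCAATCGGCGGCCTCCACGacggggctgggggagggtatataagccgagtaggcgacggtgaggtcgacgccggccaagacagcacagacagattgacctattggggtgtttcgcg

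Stretches of other promoters show the other elements, again in capitals. HSP90B1, the ER paralog of HSP90 (chr12:103930191-103930364, plus strand), holds 2 ERSE matches of opposite orientation, and HERPUD1 (chr16:56932000-56932060, plus strand) the shorter ERSE-II. ASNS (chr7:97872444-97872501, minus strand) and CHAC1 (chr15:40953237-40953294, plus strand) hold the element bound by ATF4 and C/EBP factors (CARE). HSP90AA1 (chr14:102087095-102087157, minus strand) and HSPD1 (chr2:197500043-197500090, minus strand) hold the heat shock element (HSE) bound by HSF1, in HSPD1 as 2 overlapping matches.

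HSP90B1: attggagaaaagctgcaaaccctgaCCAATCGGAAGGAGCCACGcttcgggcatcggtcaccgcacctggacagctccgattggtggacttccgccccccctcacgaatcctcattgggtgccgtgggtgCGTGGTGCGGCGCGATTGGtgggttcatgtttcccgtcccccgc
HERPUD1: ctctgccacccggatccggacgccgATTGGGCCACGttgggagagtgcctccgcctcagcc
ASNS: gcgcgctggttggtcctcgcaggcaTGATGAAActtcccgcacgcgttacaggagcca
CHAC1: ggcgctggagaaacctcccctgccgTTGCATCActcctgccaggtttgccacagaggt
HSP90AA1: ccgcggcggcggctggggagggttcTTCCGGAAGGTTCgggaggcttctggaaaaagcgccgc
HSPD1: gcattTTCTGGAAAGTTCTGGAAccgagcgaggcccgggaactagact

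Each element was searched on both strands in every window, and a gene was counted if any of its windows held a match. The ERSE, searched as CCAAT and CCACG with 9 bases of any kind between them, was found in 6 of the 34 members (17.6%), namely HSPA5, HSP90B1, CALR, PDIA6, CRELD2 and XBP1, and in 0.0916% of 27305 genes. The ERSE-II, searched as ATTGG and CCACG with 1 base between them, was found in SDF2L1 and HERPUD1 and in 0.0696% of all genes. The CARE (TGATGNAA) was found in HERPUD1, ATF3, ASNS and CHAC1 and in 4.46% of all genes. The HSE, searched as GAA, TTC and GAA with 2 bases of any kind between neighbours, was found in HSPA8, HSP90AA1, HSP90AB1, DNAJA1 and HSPD1 and in 0.608% of all genes. HSPH1, DNAJB1 and BAG3 had no match to the HSE, and DDIT3 and TRIB3 none to the CARE. A match is a description of the letters, and its absence says only that these letters are not in the window. Cytosines followed by guanine (CpG), the sites that DNA methyltransferases modify, were counted for each gene as the median over its windows. The median of these counts was 26.8 over the members and 14 over all genes. Among the members the counts ran from 2.5 for ATF3, which has 2 windows, to 41 for BAG3. A count of 20 or more was reached by 31 of the 34 members and by 40.6% of all genes.

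None of the 34 measured members passed the test between 5-Aza-treated and control HT-29 cells. The highest values were those of HSPB8 and TRIB3 and the lowest that of ATF3, with log2 fold changes of 0.70, 0.48 and -0.52. Of the 34 measured members, 0 were higher and 0 were lower at an unadjusted p under 0.025 (limma), the level that the methods of the study set for these cells. Among all genes 3.01% were higher and 0.915% lower at this level. The study also ranked the probe sets by log2 fold change and took only the top of that ranking as higher, a step that was not applied here. A mean signal of 500 or more was found for 33 of the 34 members, and among the 7819 genes with a mean signal of 500 or more 0.895% were higher and 0.358% lower, so that a count of 0 among 34 members is near the background. At an unadjusted p under 0.05 the counts were again 0 and 0, against 5.33% and 1.89% of all genes, and at an adjusted p under 0.05 limma called 0 members and 0 genes (0%). A SAM-type statistic, as named in the methods, also called 0 members at an unadjusted p under 0.025. How many of all genes it called at that level was not counted, so this 0 stands without a background. Trend and robust variance, another setting of limma, called DNAJC3, MANF and TRIB3 higher and ATF3 lower at that level, where it called 4.01% of all genes higher and 2.41% lower, and 0 members at an adjusted p under 0.05, against 0.0455% of all genes.

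The intervals given here belong to the chosen probe set of each member on the deposited scale. They measure only the spread between the arrays. For 31 of the 34 members the 95% interval of the fold change lay within 2-fold in either direction, and for 24 within 1.5-fold (limma, not adjusted for the number of genes). With the chosen probe sets the exceptions at 2-fold were ATF3, TRIB3 and HSPB8. Some probe sets that were not chosen also had intervals reaching beyond 2-fold, among them a probe set each of CALR, DNAJB9 and PPP1R15A. Among all genes 53.0% had an interval within 2-fold, and among genes with a mean signal of 500 or more 96.7%. Within 1.5-fold lay 70.6% of the members, 27.7% of all genes and 60.5% of the genes with a mean signal of 500 or more. The median log2 fold change of the members was 0.11, with a range from -0.52 (ATF3) to 0.70 (HSPB8), beside a median of 0.038 over all genes. It was positive for 23 members and negative for 11, for 26 and 8 after quantile normalization, and for 7 and 27 after each array was centred on its median, which moved the median of all genes by more than 0.1 to -0.15. Above the median of all genes lay 20 members with the values as deposited, 20 after median centring and 26 after quantile normalization. The arrays measured RNA of whole cultures, so more RNA per cell and more cells expressing a gene cannot be told apart.

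**Figure D1:**
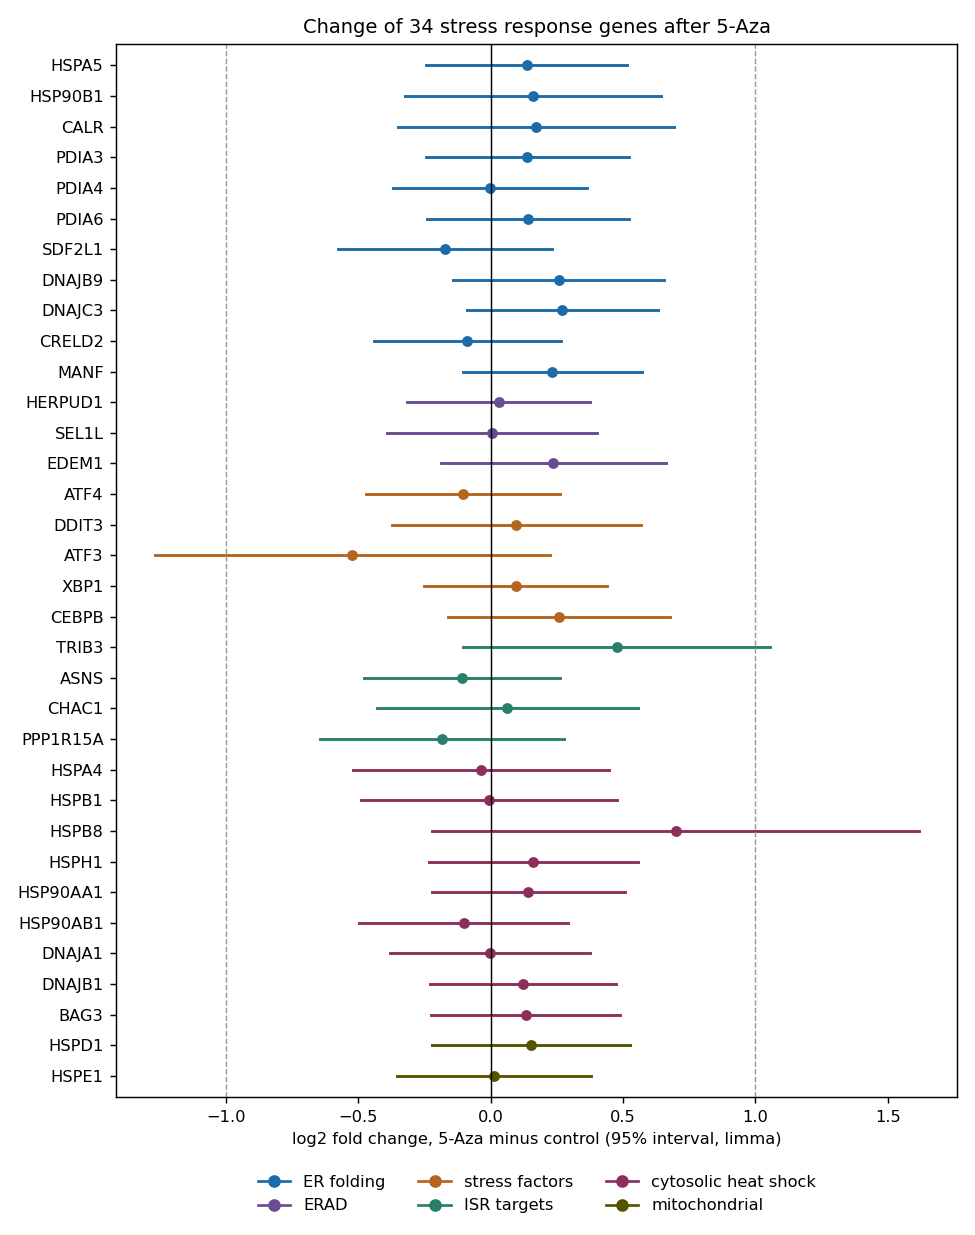
Log2 fold change (5-Aza-treated minus control, horizontal axis) of the 34 measured members, from 3 arrays of each group of HT-29 cells. Points are estimates, lines are 95% intervals (limma), colors mark the role, dashed lines mark 2-fold changes. Every interval includes 0, and those of ATF3, TRIB3 and HSPB8 reach beyond 2-fold. With median centring the points would lie further left, and 27 of them below 0.

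All measured members lay above background. The lowest signal of any member on any array was 42.4 (HSPB8, control replicate 1), above the background level. This was taken as the highest signal of the TrpnX probe sets, which match a bacterial sequence, and it was 22.6 to 42.0 on the 6 arrays. The deposited arrays share a mean of 500 (without the lowest and highest 2% of probe sets). The median signal of all probe sets was 83.1 to 85.8 on the 5-Aza arrays and 71.5 to 76.7 on the control arrays. Control replicate 3 stood apart for the members. It was the lowest of the 6 arrays for 16 of the 34 members, where 15.9% of all genes had their lowest signal on it, and the median signal of the members was 3714 there and 4242 to 4348 on the other arrays. On the same array the hybridization controls, bacterial and phage transcripts added to each sample, reached 5826 on average, while the other arrays had 9872 to 12355. Their part in the values below was not tested. Without this array the median log2 fold change of the members was 0.056, beside 0.051 over all genes. As a sign of RNA quality, the 3′ probe set of ACTB exceeded the 5′ one by 0.64 to 0.80 on the 5-Aza arrays and 0.46 to 0.60 on the control arrays on the log2 scale, and its part was not tested either.

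Of 11 epithelial markers, 7 (EPCAM, KRT8, KRT18, KRT20, CDH1, VIL1 and LGALS4) lay above background on every array, while the intestinal factor CDX1 was below it on all 6. CDH17, CDX2 and GPA33 lay above background on some arrays only. The summed signal of the epithelial markers was 117950 to 128770 in 5-Aza-treated cells and 113031 to 139348 in control cells. Of 5 fibroblast markers COL1A1, of 3 endothelial markers PECAM1 and of 4 measured leukocyte markers none lay above background on every array. The sum of the fibroblast markers was 472 to 539 in 5-Aza-treated cells and 305 to 527 in control cells. That of the endothelial markers was 223 to 266 in 5-Aza-treated cells and 133.1 to 178 in control cells, and that of the leukocyte markers 127 to 151 in 5-Aza-treated cells and 27.2 to 121 in control cells, so that both were higher on every 5-Aza array. PTPRC and CDH5, which define leukocytes and endothelium, were below background on all 6 arrays. Their part in the values of the members was not tested.

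**Figure D2:**
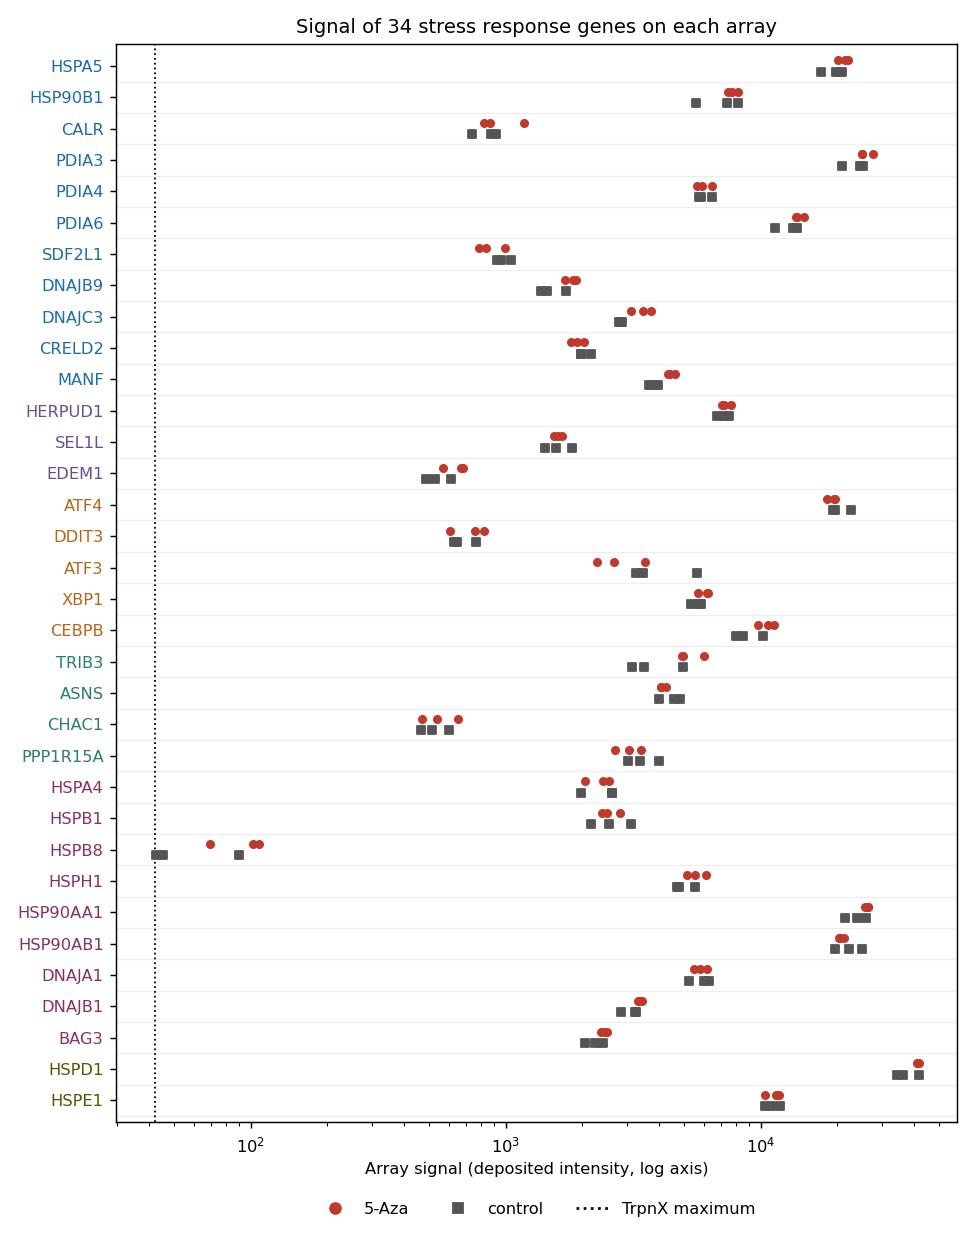
Array signal (deposited intensity, log axis) of the 34 measured members on each of the 6 arrays. Red circles are 5-Aza-treated and grey squares control HT-29 cells (n = 3 arrays each), label colors mark the role, and the dotted line is the highest TrpnX signal. The red and grey points overlap for all members but DNAJC3, MANF and DNAJB1, and HSPB8 alone lies near the background.

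The ER chaperones and folding enzymes had log2 fold changes between -0.17 and 0.27, with a median of 0.14. Of these 11 genes, 8 had positive values, 9 after quantile normalization and 3 after median centring. HSPA5 had signals of 21521, 20023 and 21939 in 5-Aza-treated cells, against 19742, 20914 and 17222 in control cells. The groups overlapped and the log2 fold change was 0.14 (SE 0.15, 95% interval -0.24 to 0.52, adjusted p = 0.874, limma). This interval holds for 1 probe set on the deposited scale and measures only the spread between the arrays. After median centring the log2 fold change of HSPA5 was -0.050. Its other probe set had -0.042 (SE 0.17).

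DNAJC3, a cochaperone of BiP that also restrains PERK, was 1 of 3 members whose groups did not overlap. Its signals were 3452, 3103 and 3709.5 in 5-Aza-treated cells, against 2830.0, 2795 and 2858 in control cells. Every 5-Aza array lay above every control array, and the log2 fold change was 0.27 (SE 0.14, adjusted p = 0.766, limma), which was 0.085 after median centring. MANF, a secreted factor that is released from the ER under stress, had signals of 4626, 4417 and 4337 in 5-Aza-treated cells, against 3647, 3779 and 3955 in control cells and its log2 fold change came to 0.23 (SE 0.13, adjusted p = 0.780), with 0.047 after median centring. Together with DNAJB1, 3 of 34 members lay above in this way and 0 below. Of all genes 9.92% did so above and 6.94% below, and of those with a mean signal of 500 or more 9.49% and 12.1%, so the share above is near the background.

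The other members of this group had overlapping signals. DNAJB9, a BiP cochaperone induced by spliced XBP1, had 1892, 1833 and 1716 in 5-Aza-treated cells, against 1731, 1459.6 and 1377 in control cells. Its log2 fold change was 0.26 (SE 0.16). The disulfide isomerases PDIA3, PDIA4 and PDIA6 had 0.14, -0.0032 and 0.14. HSP90B1 (0.16), measured with a probe set of the suffix _x_at, had signals of 7692, 7473 and 8125 in 5-Aza-treated cells, against 8143, 7350.1 and 5589 in control cells. The lowest signal was that of control replicate 3, and without this array its log2 fold change was 0.0042. Another 2 probe sets of HSP90B1 were left out, since the annotation gives them several symbols. CALR, a lectin chaperone, had 0.17. SDF2L1, which binds BiP and is strongly induced by ER stress, had the lowest value of the group, with signals of 992, 788 and 837 in 5-Aza-treated cells, against 928, 1051 and 959.7 in control cells (log2 -0.17, SE 0.16), and CRELD2 had -0.088. All intervals of this group include 0.

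Of the genes for ER-associated degradation, by which misfolded proteins are drawn back to the cytosol, HERPUD1 and SEL1L, which belong to the HRD1 ligase complex, had log2 fold changes of 0.030 and 0.0054. HERPUD1 signals were 7069.9, 7167 and 7622 in 5-Aza-treated cells, against 7497, 6757 and 7164 in control cells. They spanned nearly the same range in both groups. EDEM1, a lectin that hands glycoproteins to degradation, had 679, 569 and 666 in 5-Aza-treated cells, against 613, 528 and 486 in control cells. The groups overlapped, with a log2 fold change of 0.24 (SE 0.17) that was 0.050 after median centring.

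The 5 stress transcription factors had 3 positive and 2 negative values (1 positive after median centring). ATF3, an early factor of many stress responses, had signals of 2655, 3509 and 2289 in 5-Aza-treated cells, against 5635, 3232 and 3472 in control cells. This was the most negative value among the members (log2 -0.52, SE 0.30, 95% interval -1.27 to 0.22, adjusted p = 0.778, limma). The highest signal was that of control replicate 1, without which the log2 fold change was -0.27, and only 1 5-Aza array reached into the range of the control arrays. The value kept its sign under every alternative tried, between -0.71 and -0.27. CEBPB, which acts in stress and inflammation, had signals of 10711, 9778 and 11303 in 5-Aza-treated cells, against 8496, 10216 and 7988 in control cells and a log2 fold change of 0.26 (SE 0.17). ATF4 had 18278, 19512 and 19369 in 5-Aza-treated cells, against 19625, 22679 and 19276 in control cells. Control replicate 2 was the highest, and the log2 fold change was -0.10 (SE 0.15). DDIT3, the proapoptotic factor CHOP, had 761, 822 and 606 in 5-Aza-treated cells, against 763, 629.8 and 644 in control cells. The control range lay within the 5-Aza range (log2 0.10, SE 0.19). XBP1, whose unspliced and spliced mRNA is counted together, had signals of 5678, 6155 and 6211 in 5-Aza-treated cells, against 5812, 5327 and 5752 in control cells. The groups overlapped, with 2 of the 3 5-Aza arrays above every control array (log2 0.10, SE 0.14).

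Of the 4 genes that act as targets of ATF4 or in the recovery of protein synthesis, 2 had positive and 2 negative values (1 positive after median centring). TRIB3, a pseudokinase that inhibits ATF4 and CHOP activity, had signals of 4967, 4917 and 5973 in 5-Aza-treated cells, against 3504, 4968 and 3116 in control cells. All 5-Aza arrays lay above 2 of the control arrays, and control replicate 2 lay within the 5-Aza range. The log2 fold change was 0.48 (SE 0.23, 95% interval -0.10 to 1.06, adjusted p = 0.743, limma). Without control replicate 2 it was 0.67 and passed the unadjusted threshold of 0.025 in limma, where 3.24% of all genes were higher, and without the other arrays it lay between 0.34 and 0.52. After median centring it was 0.29. PPP1R15A, the phosphatase subunit GADD34 that restores protein synthesis, had 3042, 3391 and 2685 in 5-Aza-treated cells, against 3988, 3032 and 3351 in control cells. Its log2 fold change was -0.18 (SE 0.18). ASNS, asparagine synthetase, had 4070.5, 4067 and 4263 in 5-Aza-treated cells, against 4589.6, 4809 and 4002 in control cells. Again the groups overlapped (log2 -0.11, SE 0.15). CHAC1, which degrades glutathione, came to a log2 fold change of 0.063 (SE 0.20), with signals between 466 and 650.2.

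Among the 9 measured heat shock proteins of the cytosol the log2 fold changes ran from -0.10 to 0.70, with a median of 0.12, and 5 were positive (7 after quantile normalization and 1 after median centring). HSPB8, a small heat shock protein that works with BAG3 in selective autophagy, had the highest log2 fold change of all members, with signals close to background. These were 102, 108 and 69.2 in 5-Aza-treated cells, against 42.4, 45.4 and 90.3 in control cells. Control replicate 3 lay between the 5-Aza arrays, and the log2 fold change was 0.70 (SE 0.37, 95% interval -0.22 to 1.62, adjusted p = 0.760, limma). Without control replicate 3 it was 1.04 and passed the unadjusted threshold of 0.025 in limma, where 3.4% of all genes were higher. With a larger constant of 16 before the logarithm it was 0.57. Its partner BAG3 had signals of 2454, 2502 and 2375 in 5-Aza-treated cells, against 2234, 2053 and 2413 in control cells and a log2 fold change of 0.13 (SE 0.14).

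The inducible form of HSP90 in the cytosol, HSP90AA1, had signals of 25697, 26359 and 26341 in 5-Aza-treated cells, against 23952, 25829 and 21468 in control cells. The constitutive form, HSP90AB1, had 20519.9, 21156 and 20237 in 5-Aza-treated cells, against 22158, 25013 and 19543 in control cells. Their log2 fold changes were 0.14 (SE 0.15) and -0.10 (SE 0.16), and the difference between both genes was not tested. DNAJB1, a cochaperone of HSP70 and a sensitive target of HSF1, had 3370.2, 3298 and 3435 in 5-Aza-treated cells, against 3216, 3241 and 2837 in control cells. The 5-Aza arrays lay within a narrow range above all control arrays, but the log2 fold change was only 0.12 (SE 0.14, adjusted p = 0.880, limma), 0.061 without control replicate 3 and -0.064 after median centring. The other probe set of DNAJB1 had 1419.7, 1606 and 1193 in 5-Aza-treated cells, against 1786, 1688 and 1358 in control cells. Its groups overlapped and its value was negative (log2 -0.20, SE 0.20), and the mean over both probe sets gave -0.037. HSPH1, a nucleotide exchange factor of HSP70, had 0.16 (SE 0.16). HSPA4, a relative of HSPH1, had a log2 fold change of -0.036 with signals between 1973 and 2625 over the 6 arrays. HSPB1, the small heat shock protein HSP27, had -0.0066 with signals between 2163 and 3106, and DNAJA1, a cochaperone of HSP70, -0.0030 with signals between 5251 and 6269.7.

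HSPD1 and HSPE1 encode the large and the small ring of the mitochondrial chaperonin and lie head to head on chromosome 2. A RefSeq window of HSPD1 and the window of HSPE1 share 204 bases. HSPD1 had signals of 40933, 41749.7 and 41598 in 5-Aza-treated cells, against 36063, 41874 and 34296 in control cells. Control replicate 2 was as high as the 5-Aza arrays, and the log2 fold change was 0.15 (SE 0.15). HSPE1 had 10369, 11448 and 11801 in 5-Aza-treated cells, against 10976, 11917 and 10418 in control cells. The groups covered the same range (log2 0.013, SE 0.15).

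A gene is often measured by several probe sets, and the members had 76 with a single symbol. At the unadjusted threshold of 0.025, 2 of these lay higher and 0 lower, where 2.97% of all probe sets were higher and 1.05% lower. One was a second probe set of DNAJC3, with signals of 3273, 3248 and 3208 in 5-Aza-treated cells, against 2478, 1958 and 2141 in control cells. Its groups were well apart (log2 0.57, SE 0.15, adjusted p = 0.561, limma). Another probe set of DNAJC3 also had separate groups (log2 0.28, SE 0.16), while the groups of the remaining one overlapped (log2 -0.18, SE 0.39). The other was a probe set of CALR with the suffix _x_at (1916, 2081 and 2646 in 5-Aza-treated cells, against 1501, 1468 and 1454 in control cells), for which the log2 fold change was 0.57 (SE 0.18, adjusted p = 0.604), while the probe set used above had 0.17. A second probe set of PPP1R15A had signals of 2192, 2218 and 1587 in 5-Aza-treated cells, against 3241, 2818 and 2518 in control cells. There every 5-Aza array lay below every control array (log2 -0.52, SE 0.21, adjusted p = 0.690). The 3 probe sets of ATF3 all had negative values (-0.52, -0.27 and -0.20), and the 3 of DNAJB9 all positive ones (0.26, 0.58 and 0.46). For the one at 0.58 every 5-Aza array lay above every control array (SE 0.21, adjusted p = 0.669, limma). Of the 76 probe sets, 11 lay above in this way and 1 below. Among genes with 1 probe set each 9.92% lay above and 6.94% below, and the share over all probe sets was not counted. The mean over all probe sets of a gene moved some values further, to 0.66 for XBP1, 0.39 for ASNS and -0.35 for HERPUD1, each through 1 added probe set with signals of 4.2 to 109 over the 6 arrays. A second probe set of TRIB3 had 0.032 (SE 0.16). Of the 23 members with more than 1 probe set, all probe sets had the same sign for 12 and not for 11.

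**Figure D3:**
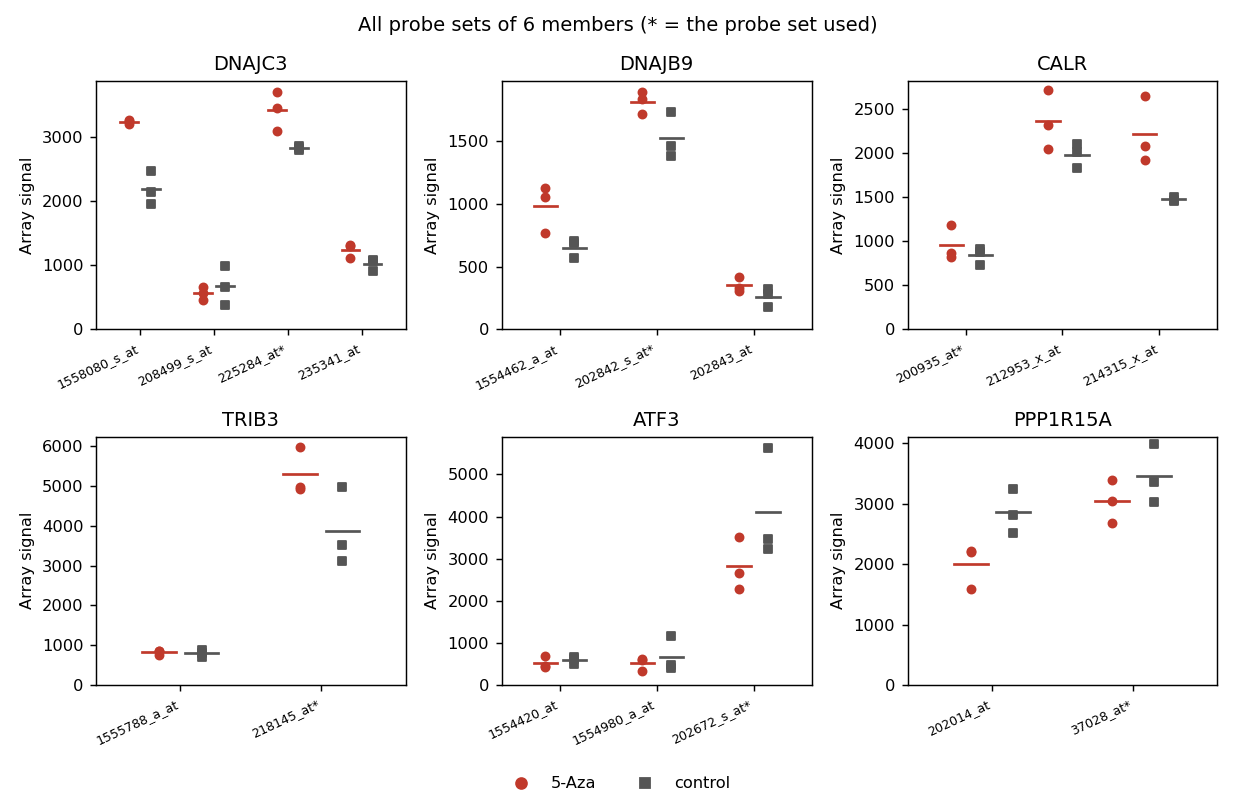
Array signals (linear axis from 0) of all probe sets of 6 members in 5-Aza-treated (red circles, left) and control (grey squares, right) HT-29 cells. Each point shows 1 array (n = 3 per group), bars are group means, and the asterisk marks the probe set used elsewhere. The groups separate for 1 probe set of DNAJC3 more than for the others of this gene, and for 1 of the 2 probe sets of PPP1R15A, with 5-Aza lower. They also separate, with 5-Aza higher, for a probe set of CALR and a probe set of DNAJB9 that were not used elsewhere.

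Beyond the members, 170 other genes of the same pathways were listed and 149 of them measured. At the unadjusted threshold of 0.025, 1 lay higher and 0 lower, where 3.01% of all genes were higher and 0.915% lower. At that of 0.05 there were 2 and 0, against 5.33% and 1.89% of all genes. At an adjusted p under 0.05 limma called 0 of them and 0% of all genes. The median log2 fold change was -0.0078, with 71 positive and 78 negative values (28 positive after median centring). Of the 15 measured sensors and regulators 0 passed, and the median was -0.038. ERN1 had signals of 883, 737 and 794 in 5-Aza-treated cells, against 714, 542 and 712 in control cells. All 5-Aza arrays lay above all control arrays (log2 0.30, SE 0.18, adjusted p = 0.792, limma). Of the 149 measured genes 16 lay above in this way and 10 below, against 9.92% and 6.94% of all genes. The groups of the other probe sets of ERN1 overlapped (log2 0.39, SE 0.34, and 0.31, SE 0.21). EIF2AK3 (0.11, SE 0.16), ATF6 (-0.042, SE 0.17) and HSF1 (-0.022, SE 0.16) had overlapping groups with the probe sets chosen by the rule. Their other probe sets did not all give the same picture. A probe set of ATF6 had 694, 685 and 876 in 5-Aza-treated cells, against 587, 481 and 567 in control cells. There every 5-Aza array lay above every control array (log2 0.46, SE 0.18, adjusted p = 0.685, limma), while the groups of the other 2 overlapped (log2 -0.17 and 0.25). The second probe set of HSF1 had 465, 449 and 394 in 5-Aza-treated cells, against 524, 478 and 470.3 in control cells, and here every 5-Aza array lay below every control array (log2 -0.17, SE 0.15, adjusted p = 0.848, limma).

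The gene past the unadjusted threshold was GDF15, a stress cytokine that ATF4, CHOP and p53 induce. Its probe set gave 88.9, 76.0 and 59.7 in 5-Aza-treated cells, against 33.4, 19.2 and 36.9 in control cells. The control values lay under the highest TrpnX signal, so the size of the fitted log2 fold change of 1.33 is not firm (SE 0.31, adjusted p = 0.485, limma). A probe set of GDF15 with the suffix _x_at had 4739, 3604 and 4285 in 5-Aza-treated cells, against 3558, 4584 and 2935 in control cells. Its groups overlapped (log2 0.20, SE 0.23). The remaining probe set of GDF15 lay under the highest TrpnX signal on every array (log2 -0.041, SE 1.09), so the probe sets of GDF15 differ in their value. The second gene at an unadjusted p under 0.05, named after its values were seen, was the cystine transporter SLC7A11, with signals of 5123, 3855 and 4871 in 5-Aza-treated cells, against 3758, 3131 and 2779 in control cells (log2 0.52, SE 0.20, adjusted p = 0.680). HSPA6, an HSP70 form that is nearly silent without heat shock and was likewise chosen after its values were seen, had 66.6, 57.8 and 62.0 in 5-Aza-treated cells, against 56.0, 73.2 and 79.7 in control cells. Its signals were weak in both groups (log2 -0.15, SE 0.19), and its other probe set had 1.32 (SE 0.65) with overlapping groups. The remaining lists had 0 genes past an unadjusted p under 0.025 in limma, where 3.01% of all genes were higher and 0.915% lower. Their medians were 0.045 for 28 other ER folding and transport genes and 0.074 for 18 other degradation genes. For 41 other cytosolic chaperones the median was -0.044, and for 15 genes of mitochondrial proteostasis -0.077. The list with GDF15 and SLC7A11, 32 other targets of the integrated stress response, had -0.061 as its median.

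**Figure D4:**
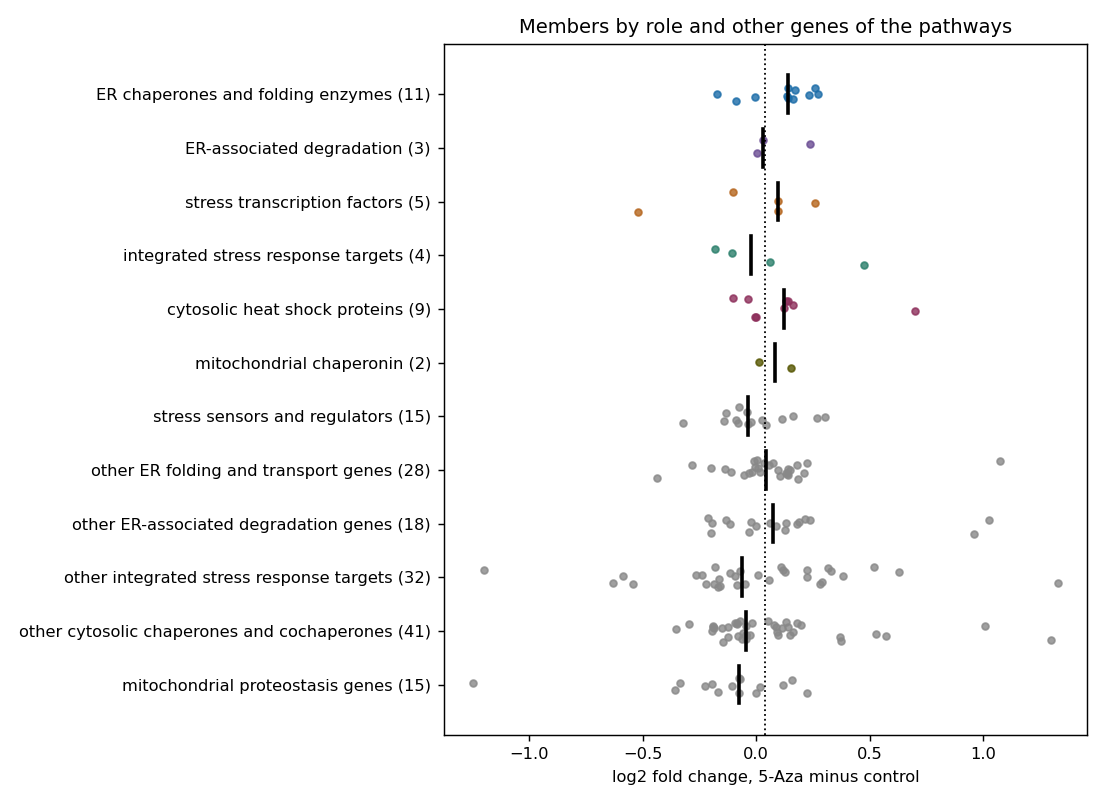
Log2 fold change (5-Aza-treated minus control, horizontal axis) of the members by role (colored points) and of the other genes of the pathways (grey points), n = 3 arrays per group. Genes are shown as points, black bars are medians, brackets give how many genes were measured, and the dotted line is the median of all genes (0.038). The list medians lie between -0.077 and 0.14, and median centring would move every point and the dotted line to the left by the same amount.

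Set beside the promoters, the values were as follows. The 6 members with an ERSE had log2 fold changes from -0.088 to 0.17 with a median of 0.14, and the 2 with an ERSE-II had -0.17 and 0.030. The 4 members with a CARE ran from -0.52 to 0.063, and the 4 measured members with an HSE from -0.10 to 0.15. These are descriptions without a test.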

How the data were processed

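Expression was measured in HT-29 cells on 6 HGU133 Plus2.0 arrays, 3 with 5-Aza and 3 with solvent, grouped by their labels. The deposited values are linear intensity values, 1 for each probe set and array, which the authors made with the affy package according to the submitters' processing notes; its version, the background correction and the summary method are not given in the sources used here. The values carry a common scale (mean of 500 without the lowest and highest 2%).

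After addition of 1, log2 values of 54613 probe sets (without 62 control probe sets) were fitted with limma 3.58.1 in R 4.3.3, with the group as the only term and with Benjamini-Hochberg adjustment of the p-values over all probe sets. No test over a list was made. The number of arrays limits the precision. Of 54675 probe sets, 41097 have a single symbol in the platform annotation, 1801 several and 11777 none, and those with a single symbol represent the genes. All members are described. From the other pathway lists genes past an adjusted p under 0.05 were to be named, otherwise up to 4 at an unadjusted p under 0.025, and always ERN1, EIF2AK3, ATF6 and HSF1. The members and lists were chosen with earlier results of these data known. The fit was tested on simulated data. No 2 arrays were duplicates (correlations from 0.926 to 0.934). Alternatives were a SAM-type statistic, trend and robust variance, quantile normalization, median centring, probe sets above the median signal only, omission of _x_at probe sets, inclusion of control probe sets, 16 added in place of 1, a replicate block, omission of each array, and averages over a gene's probe sets.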

Additional observations from a re-analysis of the deposited data

How the results depend on the processing

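At an unadjusted p under 0.025 the members called were 0 higher and 0 lower, beside 3.01% and 0.915% of all genes. Under the trend and robust variance setting the counts were 3 and 1, beside 4.01% and 2.41% of all genes. Without 1 array 0 to 1 members were higher and 0 lower. The 1 was TRIB3 without control replicate 2 (3.24% of all genes higher) and HSPB8 without control replicate 3 (3.4% higher). The other alternatives gave 0 and 0, and their shares over all genes were not counted. At an adjusted p under 0.05 every alternative gave 0 members. The median log2 fold change of the members, 0.11, was -0.077 after median centring, which lowers all values alike. It lay between 0.056 and 0.14 without 1 array and between 0.071 and 0.11 under the other alternatives. Of 543 values of single members under an alternative, 490 kept their sign and their side of the threshold, 6 passed it and 47 changed sign, of which 16 did so after median centring. The arrays of both groups share replicate numbers in the titles, but same-numbered arrays did not deviate together (correlations -0.012, 0.0021 and 0.0097), and with the replicate block 0 members were higher and 0 lower, and the median log2 fold change was 0.11. HSP90B1 gave no value without _x_at probe sets. Weak signals limit HSPB8 alone among the members.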
